A study of Mus musculus with 10 samples.

Results

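The axon guidance ligands and receptors were examined in the dentate gyrus of wild-type mice and of mice labelled as Fndc5 knockouts. They were taken from the deposited count table by symbol: 69 of its 24982 rows carry the name of a semaphorin of classes 3 to 7, a plexin, a neuropilin, an ephrin, an Eph receptor, a Slit, a Robo, a netrin, an UNC5 receptor or Dcc. These were 35 ligand genes (20 semaphorins, 8 ephrins, 3 Slits and 4 netrins) and 34 receptor genes (9 plexins, 2 neuropilins, 14 Eph receptors, 4 Robos, 4 UNC5 receptors and Dcc). RNA of the micro-dissected dentate gyrus came from 10 male mice on the C57BL/6 background, aged 10 weeks. The groups were 5 wild types and 5 mice with a global Fndc5 knockout, and each mouse gave 1 library of 26226375 to 43802079 counts. Fndc5 encodes the precursor of irisin, a peptide released by muscle on exercise.

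Axon guidance cues steer growing axons by attraction or repulsion. Class 3 semaphorins are secreted and act through neuropilins paired with plexins, other semaphorins are mostly membrane bound and bind plexins directly, ephrins signal to Eph receptors between touching cells, Slits repel through Robos, and netrins attract through DCC or repel through UNC5 receptors. In the hippocampus several of these systems place the mossy fibres, the axons of the granule neurons, and in the adult many of them act at synapses.

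Of the 69 genes, 68 had enough reads to be tested. Epha1 had 0 to 3 counts per library and was left out. No member passed the threshold of an adjusted p of 0.05 between genotypes in edgeR's quasi-likelihood test (0 of 68, against 1 gene or 0.00673% of the 14867 genes tested, smallest member adjusted p 0.788). DESeq2 and limma-voom also called 0 members. At an unadjusted p under 0.05 in edgeR there were 6 members (8.82%), 5 with lower and 1 with higher values in the knockout, against 6.29% of all genes tested. The lower ones were 7.35% of members against 3.75% of all genes, and the higher one 1.47% against 2.54%. Without knockout mouse 4 the 6 became 3, all lower, beside 5.40% of all genes tested in that fit. Without wild-type mouse 5 they became 4 lower and 4 higher, beside 8.13% of all genes. The median log2 fold change of the members was -0.01, beside 0.002 for all genes tested, and 38 of 68 members (55.9%) lay below 0 against 49.3% of all genes. Without wild-type mouse 1 the split turned to 31 below and 37 above 0.

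The data set narrow limits on most members. The 95% interval of the genotype difference lay wholly within a 1.25-fold change in either direction for 57 of 68 members (83.8%), against 74.1% of all genes tested. The 11 members outside that bound were Sema3a, Sema3b, Sema3d, Sema3e, Sema3f, Sema3g, Efna4, Efnb2, Epha2, Ntn5 and Unc5d. The median distance from the estimate to the end of its interval was 0.15 on the log2 scale for members and 0.14 for all genes. For the 58 members at 5 CPM or more in wild types, no interval reached beyond 1.37-fold. CPM is the usual count rate that corrects for library size, here scaled by TMM (trimmed mean of M values). It is compared below only within a gene. Between genes the level is given as CPM per kilobase of exon.

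**Figure D1:**
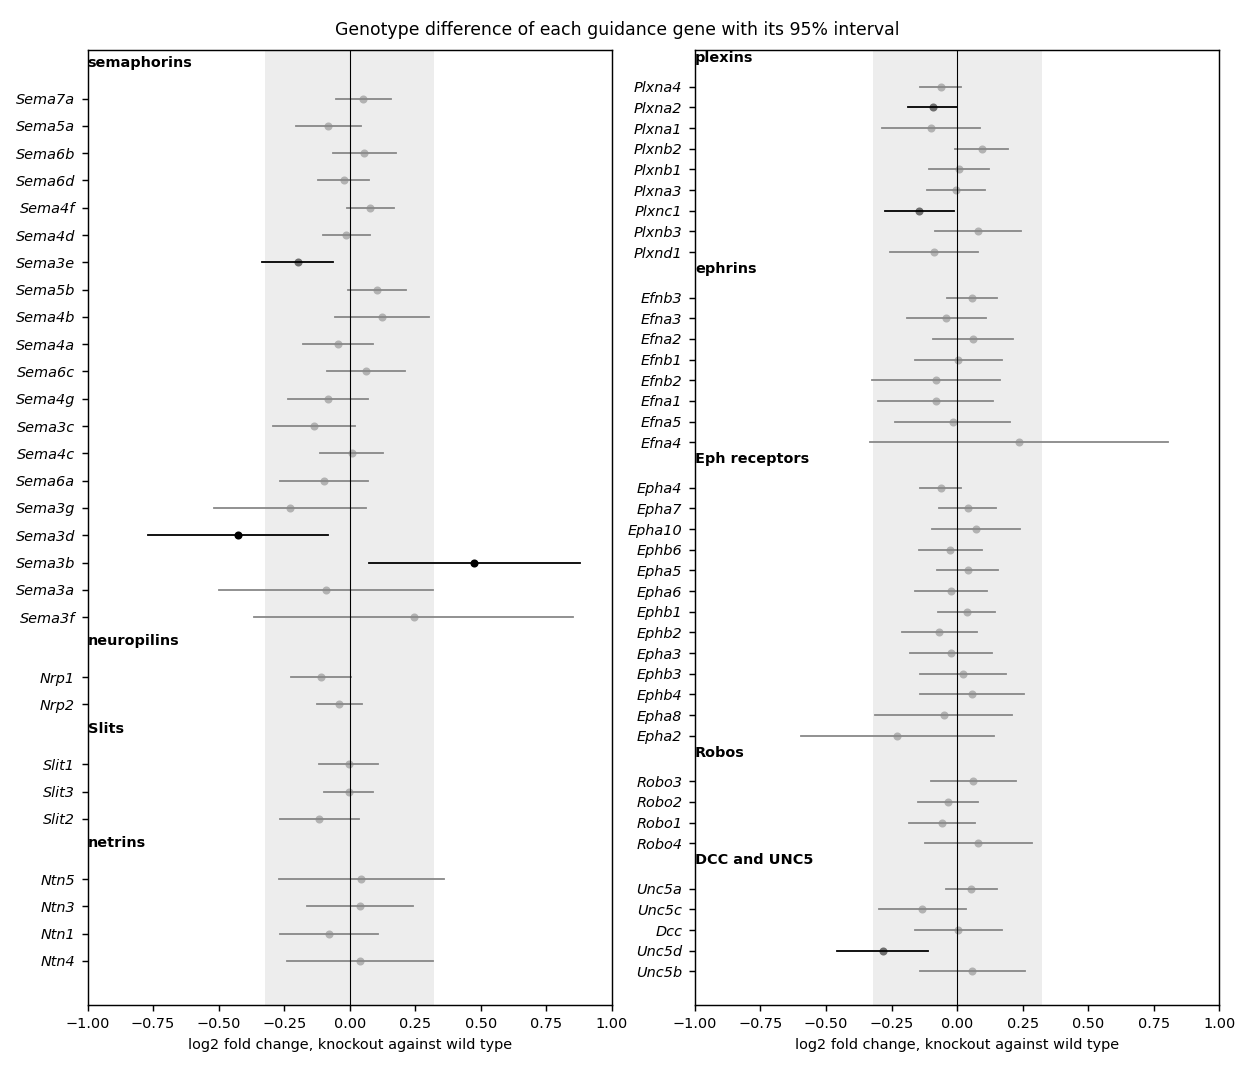
Log2 fold change of knockout against wild type for each of the 68 tested guidance genes (x axis), grouped by family, with bars for the 95% interval of the edgeR fit. Black marks the 6 genes at an unadjusted p under 0.05 and the grey band a 1.25-fold change in either direction, within which 57 of the 68 intervals lie.

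Fndc5, as the check of the labels, was at 69.2 to 80.3 CPM in wild types and 45.4 to 56.7 CPM in knockouts, with no overlap. The knockout mean was 68.1% of the wild-type mean, so most of the Fndc5 counts remained. The labels do not say which part of the gene was deleted, and counts from outside that part check nothing. The granule neuron marker list (Prox1, Dsp, Lct, C1ql2, Calb1 and Tdo2) summed to 1269 to 1467 CPM in wild types and 1406 to 1531 CPM in knockouts, so the labelled tissue carried its defining transcripts. Its values were higher in the knockout for 5 of 6 genes, and wild-type mouse 1 was the lowest library. Interneuron markers had lower values for 8 of 9 genes, with sums of 512 to 605 CPM in wild types and 483 to 534 CPM in knockouts, and wild-type mouse 1 was the highest. The part of these shifts in the values below was not tested. In bulk tissue, fewer cells of a type and less RNA per cell cannot be told apart.

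Levels per kilobase spanned a wide range, and each family was led by 1 to 3 genes. In wild types 26 of the 69 members were at 10 or more CPM per kilobase, 33 between 1 and 10, and 10 below 1. The median over the 68 tested members was 5.98 CPM per kilobase, beside 6.93 for 14723 tested genes with a length. Epha4 (105 ± 3.14 CPM per kilobase, SD, n = 5), Slit1 (92.6 ± 8.50), Nrp1 (59.5 ± 4.55), Plxna4 (56.7 ± 2.41), Efnb3 (55.9 ± 3.69) and Unc5a (52.4 ± 2.68) stood first. Among these, Epha4 did not overlap Nrp1 or the genes below it in any wild-type mouse, whereas the ranges of Nrp1, Plxna4, Efnb3 and Unc5a overlapped. The lengths are the summed exons of each gene's GENCODE M21 basic transcripts, and with the longest transcript in their place Epha10 was at 14.9 instead of 27.4 CPM per kilobase and Nrp2 at 23.9 instead of 15.5.

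**Figure D2:**
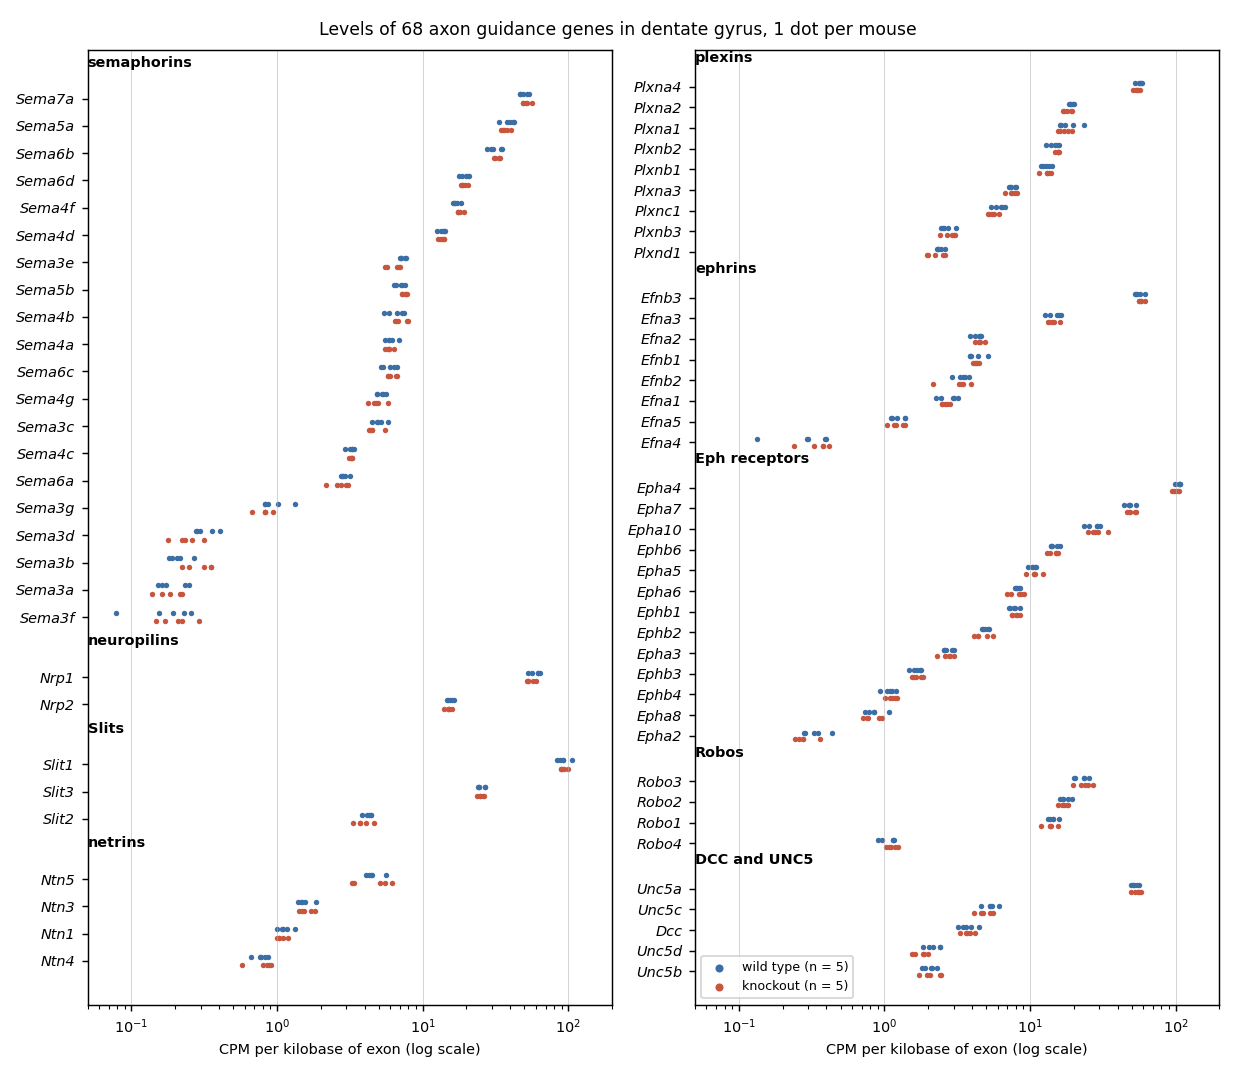
Level of each tested member in CPM per kilobase of exon on a log axis, by family and ordered by wild-type mean, with 1 dot per mouse (blue wild type, red knockout, n = 5 each). Epha4 and Slit1 lie near 100 and most class 3 semaphorins below 1, and the red and blue dots overlap for 67 of the 68 genes.

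Among the ligands, the semaphorins were led by Sema7a and Sema5a. Sema7a, a lipid-anchored semaphorin that binds plexin C1 and integrins, was at 49.6 ± 3.16 CPM per kilobase in wild types and 51.5 ± 3.09 in knockouts. It made up 22.4% of the family's summed level per kilobase in wild types (SD 1.03 over 5 mice) and 23.2% in knockouts. Per mouse its CPM were 172, 155, 153, 177 and 161 in wild types 1 to 5 and 172, 161, 169, 160.1 and 185 in knockouts 1 to 5. The groups overlapped in part, with a log2 fold change of 0.05 (SE 0.0489, edgeR adjusted p 0.874). Sema5a, a transmembrane semaphorin that binds plexin A2 on granule neurons, was at 39.1 ± 3.69 CPM per kilobase in wild types and 36.9 ± 2.30 in knockouts (log2 fold change -0.08, 95% interval -0.21 to 0.04).

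The transmembrane class 6 followed with Sema6b at 31.5 and Sema6d at 19.5 CPM per kilobase in wild types, then class 4 with Sema4f at 17.0 and Sema4d at 13.6. All 13 members of classes 4 to 7 had intervals within 1.25-fold, with a median log2 fold change of 0.01 and 6 below and 7 above 0. Sema4c was the steadiest of these in knockouts, with a coefficient of variation of 1.75% over the 5 mice.

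The 7 secreted class 3 semaphorins were scarcer and less precisely measured. Only Sema3e (7.29 CPM per kilobase) and Sema3c (5.06) were above 1 in wild types, while Sema3g (0.972), Sema3d (0.324), Sema3b (0.213), Sema3a (0.193) and Sema3f (0.182) were below. Their median coefficient of variation over wild-type mice was 17.1%, against 6.43% for classes 4 to 7. Of the 7, Sema3d and Sema3e (lower) and Sema3b (higher) were at an unadjusted p under 0.05, against 6.29% of all genes tested. Their median log2 fold change was -0.14, beside 0.002 for all genes, and 5 of 7 lay below 0, against 49.3%. Only 1 of the 7 intervals lay within 1.25-fold, that of Sema3c.

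Sema3e, whose protein binds plexin D1 without a neuropilin, was the member whose groups did not overlap. It lies on chromosome 5 from 14025276 to 14256689 on the plus strand (GRCm38). Its CPM were 51.6, 52.8, 48.2, 48.6 and 48.7 in wild types 1 to 5 and 39.1, 45.6, 37.7, 47.5 and 48.1 in knockouts 1 to 5. Knockouts 1 and 3 were well below every wild type, knockout 2 was between, and knockouts 4 and 5 sat just under the lowest wild type. On the log2 scale knockouts differed by -0.20 (SE 0.0643, 95% interval -0.34 to -0.06, edgeR adjusted p 0.788), and the exact two-sided permutation p of 0.00794 is the smallest that 5 against 5 mice allow. This was 1 of 68 members without overlap (1.47%), against 0.895% of all genes tested. In the lower direction these were the same 1.47% of members against 0.437% of all genes, and in the higher direction 0 members against 0.457%.

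Sema3d, a semaphorin that acts through neuropilins, was measured from 46 to 91 counts per library. Its CPM were 2.65, 2.2002, 2.07, 3.00 and 2.08 in wild types and 1.65, 2.33, 1.32, 1.72 and 1.92 in knockouts. All knockouts but number 2 were below the lowest wild type. The difference on the log2 scale was -0.43 (SE 0.162, edgeR adjusted p 0.788, exact permutation p 0.0397). Knockout mouse 3, the library with the lowest Sema3d, also had the lowest means of several marker lists. On the log2 scale relative to wild types, these were -0.26 for vascular and mural, -0.31 for meningeal and -0.69 for choroid plexus markers. They were -0.17 for astrocyte, -0.12 for microglia and -0.10 for CA2 and CA3 markers. The choroid plexus mean rested on 2 of 5 genes, Ttr (1.69 to 7.34 CPM over the libraries) and Kl (26.8 to 32.2 CPM). Wild-type mouse 1, with the second highest Sema3d, was nearly as low in vascular and mural (-0.22) and meningeal markers (-0.30). The part of those cells was not tested. Without knockout mouse 3 the Sema3d difference was -0.33.

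Sema3b, another secreted member, was the 1 gene with higher values among the 6, from 19 to 41 counts per library. Its CPM were 1.00, 0.768, 0.796, 0.674 and 0.706 in wild types and 0.826, 0.920, 1.175, 1.31 and 1.31 in knockouts. Knockouts 3, 4 and 5 were above every wild type, and knockouts 1 and 2 lay within their range. The estimate was 0.47 on the log2 scale (SE 0.190, with a 95% interval from 0.07 to 0.88, edgeR adjusted p 0.788, exact permutation p 0.0397). Without knockout mouse 4 the unadjusted p was 0.0649.

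**Figure D3:**
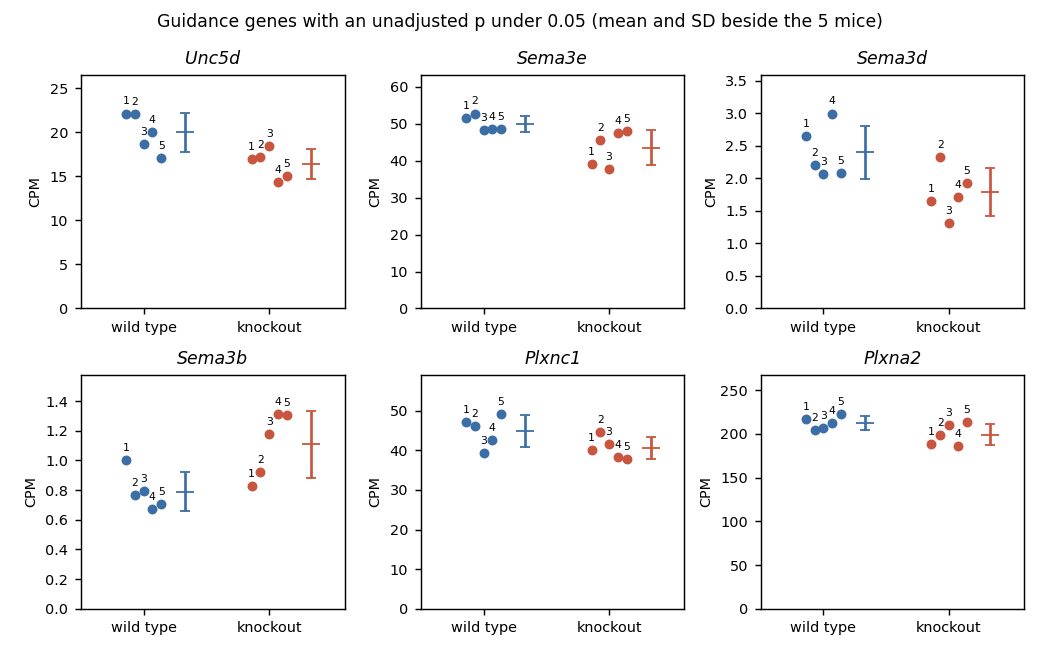
CPM of the 6 members at an unadjusted p under 0.05, 1 numbered dot per mouse, with the mean and SD of 5 mice beside each group and y axes starting at 0. Unc5d, Sema3d, Sema3b, Plxnc1 and Plxna2 overlap between genotypes, and the Sema3e groups are separated by the narrow gap between 48.1 and 48.2 CPM.

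The receptors of semaphorins were dominated by class A plexins and neuropilin 1. Plxna4, a co-receptor with neuropilins for class 3 and a direct receptor for class 6 semaphorins, held 40.3% of the plexins' summed level per kilobase in wild types and 39.8% in knockouts. Its CPM were 679.7, 758, 723, 750.2 and 739 in wild types and 662, 712, 693, 695 and 732 in knockouts. Wild types 1 and 3 lay within the knockout range (log2 fold change -0.06, 95% interval -0.14 to 0.02). Plxna2 and Plxna1 followed with 19.2 and 18.6 CPM per kilobase in wild types. Plxna1 shares 970 exon bases with the antisense gene Gm26811 and Plxna4 shares 110 with Plxna4os3, and with the strand setting of the counting unknown their levels are uncertain.

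Plxna2, a receptor for class 6 semaphorins and Sema5a, was at 217, 204, 207, 212 and 223 CPM in wild types and 188, 198, 210.4, 186 and 213 CPM in knockouts. Knockouts 1, 2 and 4 were below every wild type, and knockouts 3 and 5 lay among them. The log2 fold change was -0.09 (SE 0.0435, edgeR adjusted p 0.788, exact permutation p 0.0873). Its unadjusted p was 0.0642 with upper-quartile scaling, 0.0503 in DESeq2 and 0.0889 in the fit that removes trends with GC and gene length.

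Plxnc1, the plexin that binds Sema7a, was at 47.3, 46.2, 39.3, 42.5 and 49.2 CPM in wild types and 40.2, 44.7, 41.5, 38.4 and 37.8 CPM in knockouts. Knockouts 4 and 5 were below every wild type, and wild type 3 was below knockouts 1, 2 and 3. The log2 fold change was -0.14 (SE 0.0620, edgeR adjusted p 0.788, exact permutation p 0.0794). It was at an unadjusted p under 0.05 in 4 of the 10 fits that left out 1 library. Plxnc1 shares 115 exon bases with Gm48718 on its own strand. The handling of such reads is not given here, so its level is uncertain. The 4 class A plexins all had values below 0 (log2 fold changes -0.10 to -0.005) and the 3 class B plexins all above 0 (0.007 to 0.09), with every interval within 1.25-fold. Of all genes tested, 49.3% lay below 0. The split by class was not in the planned list of families, and each class had a member near 0.

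Nrp1 and Nrp2, the neuropilins that bind class 3 semaphorins, stood at 59.5 and 15.5 CPM per kilobase in wild types. Nrp1 was at 224, 202, 229, 191 and 224 CPM in wild types and 191, 189.7, 218, 189 and 205 CPM in knockouts. Knockouts 1, 2 and 4 lay just below the lowest wild type and the others within the range (log2 fold change -0.11, SE 0.0536, edgeR unadjusted p 0.0553, adjusted p 0.789). The fit that removes trends with GC and gene length gave -0.07 for Nrp1. Nrp2 had a log2 fold change of -0.04 (95% interval -0.13 to 0.05). The neuropilin mean over both genes, on the log2 scale relative to wild types, was -0.07 ± 0.0224 in knockouts and 0.00 ± 0.0624 in wild types (SD, n = 5 each).

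Promoter windows from RefSeq (GRCm38.p6), which run from 250 bases before to 50 after a gene's start, were available for 59 of the 69 members in 75 windows. The entries not found were Dcc, Efnb3, Ntn1, Plxna1, Plxna4, Sema3b, Sema3f, Sema6a, Slit1 and Unc5d. Printed here are the windows of Sema3e, the member without overlap between genotypes, of Plxnc1, the semaphorin receptor described above, and of Epha4, the member with the highest level per kilobase. Capitals mark matches on either strand to the short motifs named next. The GC box, bound by Sp1-type factors, was searched as GGGCGG. The TATA box, which positions the start of transcription, was searched as TATAAA. The full cyclic AMP response element, bound by CREB, was searched as TGACGTCA. Its core, which the full element contains on both strands, was searched as TGACG. The E-box, bound by basic helix-loop-helix factors, was searched as CACGTG. The AP-1 site was searched as TGANTCA, where N is any base.
Sema3e (chr5:14025026-14025325, plus strand): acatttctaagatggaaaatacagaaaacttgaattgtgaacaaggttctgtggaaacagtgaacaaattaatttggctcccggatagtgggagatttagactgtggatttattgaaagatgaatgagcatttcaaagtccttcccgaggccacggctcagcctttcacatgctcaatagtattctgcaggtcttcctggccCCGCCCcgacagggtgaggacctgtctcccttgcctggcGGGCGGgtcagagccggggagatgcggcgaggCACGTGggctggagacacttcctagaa
Plxnc1 (chr10:94944796-94945095, minus strand): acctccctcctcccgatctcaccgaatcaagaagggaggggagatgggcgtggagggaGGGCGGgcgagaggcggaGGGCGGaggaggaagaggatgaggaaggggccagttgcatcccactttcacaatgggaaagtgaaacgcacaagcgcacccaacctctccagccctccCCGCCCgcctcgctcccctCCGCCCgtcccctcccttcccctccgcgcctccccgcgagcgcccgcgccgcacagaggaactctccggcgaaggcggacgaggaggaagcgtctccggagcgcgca
Epha4 (chr1:77515039-77515338, minus strand): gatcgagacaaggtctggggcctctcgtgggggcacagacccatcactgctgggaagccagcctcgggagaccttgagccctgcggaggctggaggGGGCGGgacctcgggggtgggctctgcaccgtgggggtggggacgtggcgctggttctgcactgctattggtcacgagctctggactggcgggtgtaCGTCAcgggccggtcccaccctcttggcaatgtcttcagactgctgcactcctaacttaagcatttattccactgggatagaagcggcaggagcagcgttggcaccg
The Sema3e window held 2 GC boxes and 1 E-box, the Plxnc1 window 4 GC boxes, and the Epha4 window 1 GC box and 1 core of the cyclic AMP element. None of the 3 held a TATA box, a full cyclic AMP element or an AP-1 site in these letters. A GC box was found in 70.7% of member windows against 35.7% of all 32851 windows, and a TATA box in 2.67% against 13.6%. Member windows were richer in G and C, with a median of 64.3% against 52.7%. The shares were 1.33% against 1.79% for the full cyclic AMP element and 13.3% against 20.8% for its core. They were 6.67% against 7.15% for the E-box and 4.0% against 7.81% for the AP-1 site. These are matches of letters and say nothing of binding.

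Ephrins, the membrane-bound ligands of Eph receptors, were led by Efnb3, a transmembrane ephrin-B. It held 64.2% of the family's summed level per kilobase in wild types (SD 1.93) and 65.5% in knockouts (SD 0.392). Its CPM were 167, 172, 174, 181 and 197 in wild types and 179.5, 185, 197, 179 and 184 in knockouts. The groups overlapped, with a log2 fold change of 0.06 (SE 0.0449, 95% interval -0.04 to 0.15). Efna3, a lipid-anchored ephrin-A, followed with 14.8 CPM per kilobase in wild types (log2 fold change -0.04), and the other 6 ephrins were between 0.303 and 4.34. Efna4, from 7 to 21 counts per library, had the widest interval of the family (-0.33 to 0.80). Its log2 fold change of 0.24 became 0.05 without wild-type mouse 1. Efna3 and Efna4 share 344 and 168 exon bases with antisense genes, so their levels are uncertain in the same way. Ephrins split 4 below and 4 above 0.

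Eph receptors, the tyrosine kinases that bind ephrins, were led by Epha4, which binds ephrins of both classes, with 45.0% of the family's summed level per kilobase in wild types and 43.4% in knockouts. Its CPM were 632, 679, 668, 682 and 666 in wild types and 593, 662, 621, 640.0 and 669 in knockouts. Knockouts 1 and 3 were below every wild type and the others within the range (log2 fold change -0.06, SE 0.0373, 95% interval -0.14 to 0.02). The difference was -0.04 without knockout 1 and -0.03 with GC and length trends removed. Epha7 was next at 48.5 CPM per kilobase in wild types and 49.8 in knockouts (log2 fold change 0.04). Then came Epha10 at 27.4 and Ephb6 at 14.7 in wild types, both of which lack kinase activity.

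The kinase-active EphB receptors were lower in level, with Ephb1 at 7.74, Ephb2 at 4.94, Ephb3 at 1.66 and Ephb4 at 1.08 CPM per kilobase in wild types. All 5 EphB genes had intervals within 1.25-fold, and so did 7 of 8 tested EphA genes, all but Epha2. Epha2 was at 1.28, 1.36, 1.09, 1.11 and 1.71 CPM in wild types and 0.954, 1.08, 1.09, 1.01 and 1.42 CPM in knockouts. The groups overlapped (log2 fold change -0.23, SE 0.174, edgeR adjusted p 0.841), and the estimate was -0.12 without wild type 5. Of the 13 tested Eph receptors, 7 lay below and 6 above 0.

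Slit1, a secreted repellent, was the most abundant ligand per kilobase, with 75.8% of the summed level of the 3 Slits in wild types (SD 1.08) and 76.0% in knockouts (SD 0.872). Its CPM were 540.3, 512, 492, 538 and 623 in wild types and 545, 532, 521, 519.9 and 578 in knockouts. All knockouts lay within the wild-type range, and the 95% interval of the log2 fold change was -0.12 to 0.11. Slit3 was at 25.2 CPM per kilobase in wild types and 25.1 in knockouts (interval -0.10 to 0.09). Slit2 was at 4.23 and 3.90, with 44.3, 43.3, 38.5, 44.3 and 41.5 CPM in wild types and 37.5, 46.2, 33.3, 37.5 and 41.2 CPM in knockouts, which overlapped (log2 fold change -0.12, SE 0.0715, edgeR adjusted p 0.800). It was -0.06 without knockout 3 and -0.18 without knockout 2.

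The Robo receptors were ordered Robo3, Robo2, Robo1 and Robo4 by level. Robo3, which in embryonic commissural neurons modifies the response to Slits, was at 22.6 ± 2.25 CPM per kilobase in wild types, Robo2 at 17.6 ± 1.38 and Robo1 at 14.3 ± 0.897. The range of Robo3 over wild-type mice did not overlap that of Robo2, and the lowest Robo2 was above the highest Robo1. Robo4, known from endothelial cells, was at 1.07 ± 0.125. The Robo3 CPM were 105, 103, 121, 129.5 and 120.4 in wild types and 114, 101, 122, 128 and 139 in knockouts, with overlap (log2 fold change 0.06, 95% interval -0.10 to 0.22). Robo1 was at -0.06, Robo2 at -0.04 and Robo4 at 0.08 on the log2 scale, and all 4 intervals lay within 1.25-fold.

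The 4 netrins summed to 8.05 CPM per kilobase in wild types, against 65.7 for Dcc and the 4 UNC5 genes, of which Unc5a made up 52.4. The other receptors were at 5.37 (Unc5c), 3.74 (Dcc), 2.17 (Unc5d) and 2.04 (Unc5b) CPM per kilobase, all under the member median of 5.98. Ntn5 was at 4.58, Ntn3 at 1.55, Ntn1 at 1.14 and Ntn4 at 0.781 CPM per kilobase. Ntn1, the classical secreted netrin, was at 6.08, 7.09, 6.64, 6.74 and 8.06 CPM in wild types and 6.29, 7.29, 6.68, 6.10 and 6.27 CPM in knockouts, with overlap (log2 fold change -0.08, 95% interval -0.27 to 0.11). Ntn5 was the most spread of the netrins in knockouts, at 11.3, 13.7, 12.2, 7.54 and 7.24 CPM against 9.85, 9.99, 9.53, 8.995 and 12.4 CPM in wild types. Knockouts 4 and 5 lay below and knockout 2 above every wild type, and the log2 fold change was 0.04 (SE 0.149). Ntn5 shares 519 exon bases with Sec1 on the opposite strand and Ntn3 shares 89 with Tbc1d24 on its own, and since the strand setting of the counting is not given here, their levels are uncertain.

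Unc5a, a repulsive netrin receptor, held 79.7% of the summed level per kilobase of Dcc and the UNC5 genes in wild types and 81.2% in knockouts. Its CPM were 217, 197, 202, 207 and 223 in wild types and 224, 211, 232, 198 and 221 in knockouts, with overlap (log2 fold change 0.05, 95% interval -0.04 to 0.15). Dcc, the attractive receptor, was at 32.9, 46.0, 35.8, 40.9 and 37.4 CPM in wild types and 34.3, 43.1, 37.9, 37.7 and 40.2 CPM in knockouts. All knockouts lay within the wild-type range, and the interval was -0.16 to 0.17. Unc5c was at 52.1 ± 5.07 CPM in wild types and 47.5 ± 5.71 in knockouts (log2 fold change -0.13, SE 0.0781, edgeR adjusted p 0.800).

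Unc5d, a receptor that also binds the adhesion protein FLRT2, had the smallest p of all 68 members. It lies on chromosome 8 from 28646717 to 29219636 on the minus strand (GRCm38), and its level was 2.17 CPM per kilobase in wild types and 1.78 in knockouts. The CPM were 22.1, 22.1, 18.7, 20.01 and 17.02 in wild types and 17.00, 17.1, 18.4, 14.3 and 15.05 in knockouts. Knockouts 4 and 5 were clearly and knockout 1 marginally below every wild type, while knockouts 2 and 3 were above wild type 5. Its log2 difference was -0.28 (SE 0.0821, 95% interval -0.46 to -0.11), the edgeR unadjusted p was 0.00319 and the adjusted p 0.788. The exact two-sided permutation p was 0.0238. Leaving out each library in turn gave -0.33 to -0.24, with an unadjusted p of at most 0.0109, and the fit with GC and length trends removed gave -0.24.

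**Figure D4:**
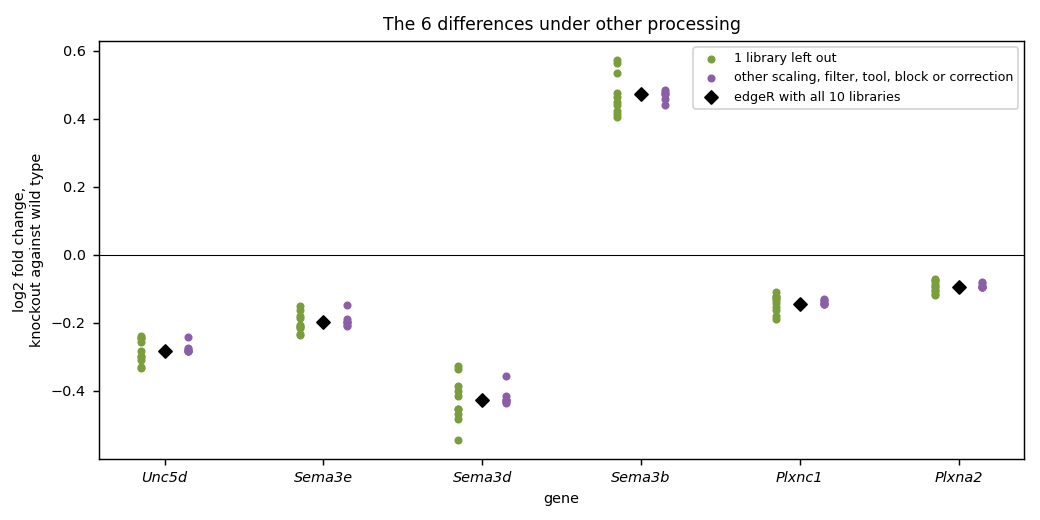
Log2 fold change of the 6 members under the main edgeR fit (black diamond), with 1 library left out (green) and under the other scaling, filter, tool, replicate block or GC and length correction (purple). Every point keeps the sign of the main fit, and Sema3d and Sema3b spread most, from -0.54 to -0.33 and from 0.40 to 0.57 with 1 library left out. The 6 were picked for estimates large against their SE in the main fit, so the kept signs are no support for them.

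Family means were compared mouse by mouse. The mean log2 difference from wild types over all 68 members was 0.00 ± 0.0425 in wild-type mice and -0.02 ± 0.0265 in knockouts (SD, n = 5 each), with ranges of -0.06 to 0.06 and -0.05 to 0.01. Plexins lay at -0.04 ± 0.0393 in knockouts, Slits at -0.04 ± 0.0863, Dcc and the UNC5 genes at -0.06 ± 0.0483, ephrins at 0.02 ± 0.0680 and netrins at -0.004 ± 0.139. The knockout mice overlapped the wild types in all 9 families. Of the ligands 19 of 35 and of the tested receptors 19 of 33 lay below 0, with medians of -0.005 and -0.02.

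**Figure D5:**
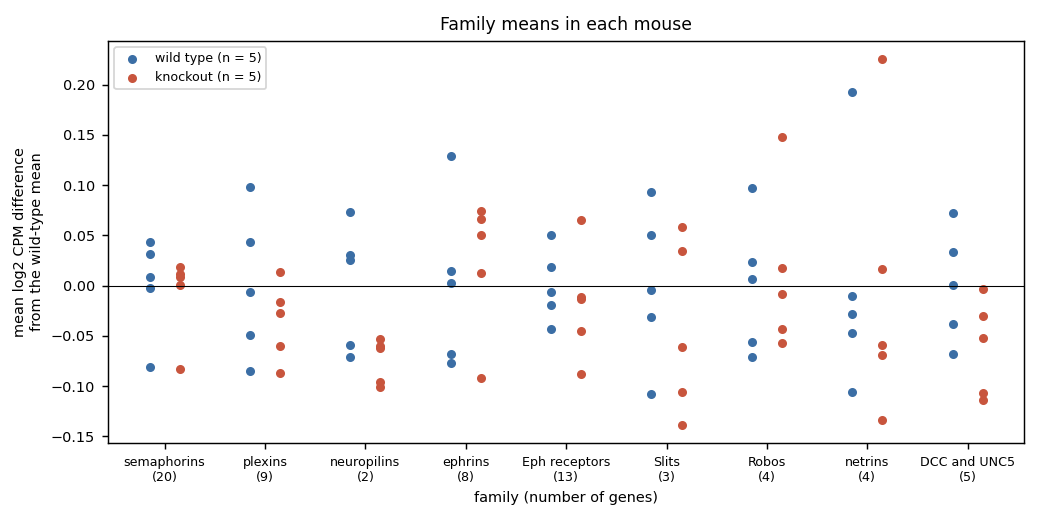
Mean log2 CPM difference from the wild-type mean over the genes of each family (y axis), 1 dot per mouse, with the number of tested genes under each family name. Blue wild types and red knockouts overlap in every family, and netrins (4 genes) spread most, from -0.13 to 0.23 in knockouts.

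Co-receptors, adhesion partners and intracellular effectors of these receptors were taken from a separate list. Of 80 symbols listed, 77 were in the count table. The absent ones, Lphn3, Tag1 and Grb4, are older names of Adgrl3, Cntn2 and Nck2, which are listed too. All in the table but Rhod were tested (76), and 43 had values below and 33 above 0 (median log2 fold change -0.01). No effector passed over all genes in edgeR (smallest adjusted p 0.788), and 5 were at an unadjusted p under 0.05 (6.58%, against 6.29% of all genes), a share near that of all genes. All 5 had lower values, against 3.75% of all genes with lower and 2.54% with higher values. They are given as values only. Flrt3, an adhesion protein that binds UNC5 receptors and latrophilins, was at 65.0 ± 5.57 CPM in wild types and 56.5 ± 4.86 in knockouts (log2 fold change -0.20, SE 0.0642). Adgrl3, the latrophilin that FLRT3 binds, had means of 86.1 ± 3.10 and 79.4 ± 1.95 CPM in the same order, a log2 difference of -0.12 with an SE of 0.0368. Dpysl3, a collapsin response mediator, was at -0.15, the Ena protein gene Enah at -0.08 and Grip1, a scaffold that binds ephrin-B and Eph receptors, at -0.10 on the log2 scale. All 5 overlapped between genotypes.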

How the data were processed

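The authors deposited raw counts per gene symbol, not normalized, for stranded poly(A) libraries of 10 mice (500 ng RNA, single reads of 75 bases, per the labels' protocols). The submitters' processing notes name STAR 2.5.1b, Cufflinks 2.2.1 and mm10. No source used here gives the strand setting or the handling of multi-mapped reads, so counts of overlapping genes are uncertain.

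Genes were filtered with filterByExpr, scaled by TMM and compared in edgeR 4.0.16 (quasi-likelihood test, R 4.3.3) with genotype as the only term, with Benjamini-Hochberg adjustment over all 14867 genes kept. Permutation tests on log2 CPM were exact over 252 assignments. The fit was tested on simulated data. Exon lengths and coordinates are from GENCODE M21 (GRCm38). The genes given fold changes were, by rule, members at an unadjusted p under 0.05 and the 2 smallest p and 2 highest levels of each family; others, including Dcc, were named after their values were seen. The members and lists were chosen with earlier results of these data known. Alternatives were DESeq2 1.42.0, limma-voom (limma 3.58.1), upper-quartile scaling, other filters, mouse number as a block, a GC and length correction, and leaving out each library. No libraries of a genotype differed by as little as counting noise (lowest chi-square per degree of freedom 4.47).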

Additional observations from a re-analysis of the deposited data

Results flagged for a closer look

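Of 138 groups of 5 values checked (68 members and Fndc5 in each genotype), 4 held a library far from the rest, against about 6.9 by chance. All 4 were knockouts. In mouse 5, Epha2 reached 1.42 CPM where its group otherwise spanned 0.954 to 1.09, and Sema3c reached 30.1 CPM where the rest spanned 23.4 to 24.7. In mouse 2, Plxnb2, a class B plexin, was low at 97.0 CPM, below a span of 102 to 104. In mouse 3, Sema4f was high at 78.4 CPM, above a span of 71.3 to 73.3.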

How the results depend on the processing

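No guidance gene passed the threshold in any of the 17 alternatives. Fndc5 passed in all of them (log2 fold change -0.59 to -0.51). The count of genes past the threshold was 3 with the DESeq2 Wald test, 8 with the replicate block and 1 to 3 with single libraries left out. With the block, 16 of 68 members were at an unadjusted p under 0.05 in edgeR (12 lower, 4 higher), against 10.0% of all genes. The smallest member adjusted p in that edgeR fit was 0.156. With single libraries left out, 3 to 8 members were at an unadjusted p under 0.05, the fewest without knockout mouse 4. The share of all genes tested also moved over these fits. It was lowest at 3.72% when wild-type mouse 2 was dropped and highest at 8.27% when knockout mouse 2 was dropped. Each of those fits had 7 members at an unadjusted p under 0.05. Same-numbered mice correlated at 0.209, 0.204, 0.108, 0.00901 and 0.0282, and since not every pair was over 0.1, which was the criterion set for pairing, mice were treated as unpaired. For 6 of the 10 mice the best match was the mouse of the same number (not for wild types 3 and 4 or knockouts 4 and 5). The median over members ranged from -0.02 to 0.004 with single libraries left out, above 0 without wild-type mouse 1. Differences near 0 changed sign: Slit1 was at 0.000335 with limma-voom and 0.00494 with upper-quartile scaling, Slit3 at 0.00498 with the latter, and Robo2 at 0.0190 after GC and length correction. With single libraries left out, Slit1 ranged from -0.0367 to 0.0508, Slit3 from -0.0236 to 0.0208, Robo2 from -0.0624 to 0.00660, Efna3 from -0.0906 to 0.000352, Ntn3 from -0.0143 to 0.111, Ntn5 from -0.0713 to 0.145 and Dcc from -0.0479 to 0.0740. Of 30 genes given fold changes, 22 moved over 1.5 times or changed sign in at least 1 fit without a library. After GC and length correction 15 did, and none in either case was among the 6 at an unadjusted p under 0.05. The 6 were picked for estimates large against their SE in the main fit, and such a rule mostly flags estimates near 0. That none was flagged is therefore no support for them. The causes were not tested. Depth limits Sema3a, Sema3b, Sema3d, Sema3f, Efna4 and Epha2, all below 100 counts in every library.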
